A study of Mus musculus with 10 samples.

Results

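The genes described here are 9 genes known for their expression in monocytes, measured in RNA of neutrophils prepared from mouse bone marrow: Ccr2, Fn1, F13a1, Ms4a6c, Csf1r, Cx3cr1, Ly86, Ctss and Mpeg1 (Entrez Gene 12772, 14268, 74145, 73656, 12978, 13051, 17084, 13040 and 17476). They are 9 of 19938 genes measured by probe sets that name a single gene, and each had 1 such probe set. They were selected from monocyte genes with their values on the fMLP arrays known, where they lay below unstimulated replicate 3, so that difference is given below as a description with no test. The study asked what lipocalin 2, the granule protein encoded by Lcn2, does in resting and in stimulated neutrophils, and hybridised 10 Affymetrix Mouse Gene ST arrays in 4 groups. These were unstimulated wild type (3 arrays), unstimulated Lcn2 knockout (3), wild type after fMLP (2) and Lcn2 knockout after fMLP (2), all labelled as C57bl/6 females aged 10 weeks. Stimulation was with 10 micromolar fMLP, a formylated peptide that attracts and activates neutrophils, for 20 minutes at 37 degrees Celsius. Cells were taken from the interface between 62% and 81% Percoll after lysis of red cells, so they were enriched by density and not sorted by a surface marker. The labels do not describe the knockout allele, whether replicates were separate animals, or whether unstimulated cells were warmed too. The p-values below therefore measure the spread between these samples, which may be technical.

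Monocytes and neutrophils arise in the marrow from shared myeloid precursors, and the transcription factors PU.1 and C/EBP act in both. Classical monocytes use the chemokine receptor CCR2 to leave the marrow, patrolling monocytes carry more CX3CR1, and CSF1R, the receptor of macrophage colony-stimulating factor, guides the development and survival of the lineage. Monocytes and macrophages also make fibronectin (Fn1) and the transglutaminase subunit of coagulation factor XIII (F13a1), and macrophages and dendritic cells share several of the other genes, such as the lysosomal protease gene Ctss and the gene of the pore-forming protein perforin-2, Mpeg1.

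The values are RMA signals on a log2 scale, on which 1 unit is a 2-fold difference. The arrays fell into 2 sets that differ in the spread of all values: 4 arrays, the unstimulated replicates numbered 1 and 2, form set 1 (interquartile range 1.64 to 1.68), and 6 arrays, the unstimulated pair numbered 3 and all those after fMLP, form set 2 (2.47 to 2.59). Because of this, set 1 is compared with set 2 below by a gene's percentile among all 35556 probe sets of its own array, and log2 signals are compared within a set. An exception is the alternative without the array set term in the closing section. How many of all genes kept the sets apart by percentile was not counted, so such gaps are given for single genes as a description. Across probe sets, arrays correlated at 0.977 to 0.988 within set 1 and at 0.75 to 0.813 between the sets. Within set 2, fMLP knockout replicate 2 stood apart, at 0.935 to 0.949 with the other arrays against 0.978 to 0.996 among them, and neuronal genes averaged 10.81 on it against 7.31 to 7.53 on the other arrays of set 2. Both unstimulated replicate 3 arrays went against the female label: the Y-linked gene Eif2s3y lay at percentile 81.5 (wild type) and 78.8 (knockout) there, against 7.33 to 21.3 on the other 8 arrays. The X-inactivation transcript Xist lay at percentile 26.1 and 27.0 on them and at 83.8 to 92.6 on the fMLP arrays. It was low on set 1 too, at 31.2 to 34.0, so set 1 showed a high level of neither gene and its sex label is not borne out by Xist. Since replicate 3 is the only unstimulated pair of set 2, fMLP and this sign of sex cannot be told apart in the comparison within that set. Lcn2 was lower in every array labelled knockout, by -5.39 without fMLP (SE 0.33, limma adjusted p = 0.00266) and by -5.14 after it (SE 0.41, limma adjusted p = 0.0189). Genes that mark neutrophils, such as S100a8, S100a9 and Ltf, were among the brightest on every array (list median at percentile 98.8 to 99.7 within the array).

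The windows before 4 transcription starts are shown because they belong to genes with large (Ccr2, F13a1) and small (Ly86, Ctss) differences below, and because F13a1 and Ly86 are direct neighbours. Each holds the 250 bases before a RefSeq start (GRCm38.p6), 5′ to 3′ on the gene's strand, with capitals marking a match to GAGGAA, the core letters of PU.1 sites.
Ccr2, chr9:124101933-124102182, plus strand: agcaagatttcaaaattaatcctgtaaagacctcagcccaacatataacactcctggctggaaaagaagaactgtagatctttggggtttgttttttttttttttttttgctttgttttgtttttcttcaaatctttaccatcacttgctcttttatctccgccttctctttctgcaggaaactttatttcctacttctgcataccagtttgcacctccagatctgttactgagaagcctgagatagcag
F13a1, chr13:37050245-37050494, minus strand: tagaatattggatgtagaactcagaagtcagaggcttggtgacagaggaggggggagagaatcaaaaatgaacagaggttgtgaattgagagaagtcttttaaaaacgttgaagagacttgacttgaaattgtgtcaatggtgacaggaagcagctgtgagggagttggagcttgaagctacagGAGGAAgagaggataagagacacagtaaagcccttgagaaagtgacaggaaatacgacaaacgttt
Ly86, chr13:37345095-37345344, plus strand: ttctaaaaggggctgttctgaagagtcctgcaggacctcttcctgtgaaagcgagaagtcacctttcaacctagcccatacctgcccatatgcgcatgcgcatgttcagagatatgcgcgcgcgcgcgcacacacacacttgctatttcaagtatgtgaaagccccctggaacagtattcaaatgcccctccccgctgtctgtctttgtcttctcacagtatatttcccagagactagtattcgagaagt
Ctss, chr3:95526536-95526785, plus strand: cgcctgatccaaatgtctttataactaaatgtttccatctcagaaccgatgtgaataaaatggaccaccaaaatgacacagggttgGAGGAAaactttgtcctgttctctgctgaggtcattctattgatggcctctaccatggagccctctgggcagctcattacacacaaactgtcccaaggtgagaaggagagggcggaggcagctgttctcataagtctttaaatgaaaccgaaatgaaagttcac
Windows for 7 of the 9 genes were scanned on both strands, 8 in all because F13a1 has 2 starts. GAGGAA was found in 2 of the 8, with its first base 164 bases before the start of Ctss and 66 before the F13a1 start shown, against 23.3% of 32851 windows of the same length over all genes. The C/EBP letters TTGCNNAA were in 0 of the 8, against 9.56% of all windows. These matches are descriptions of letters, and the absence of a match says only that the letters are not in that window.

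On the arrays of set 2, each of the 9 genes lay lower on all 4 fMLP arrays than on both unstimulated replicate 3 arrays. That order held for 20.2% of the 14070 tested genes (28.7% with the 3 fMLP arrays other than knockout replicate 2); the members were selected on this comparison, so nothing is read from their count. The differences ran from -2.14 (Ms4a6c) to -0.52 (Cx3cr1) with a median of -1.13, while all tested genes had a median of -0.02 and a 5th to 95th percentile of -0.47 to 0.45. Leaving out fMLP knockout replicate 2 gave a median of -0.78, against -0.01 for all genes. In these bulk samples, fewer cells of a type and less RNA per cell cannot be told apart.

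**Figure D1:**
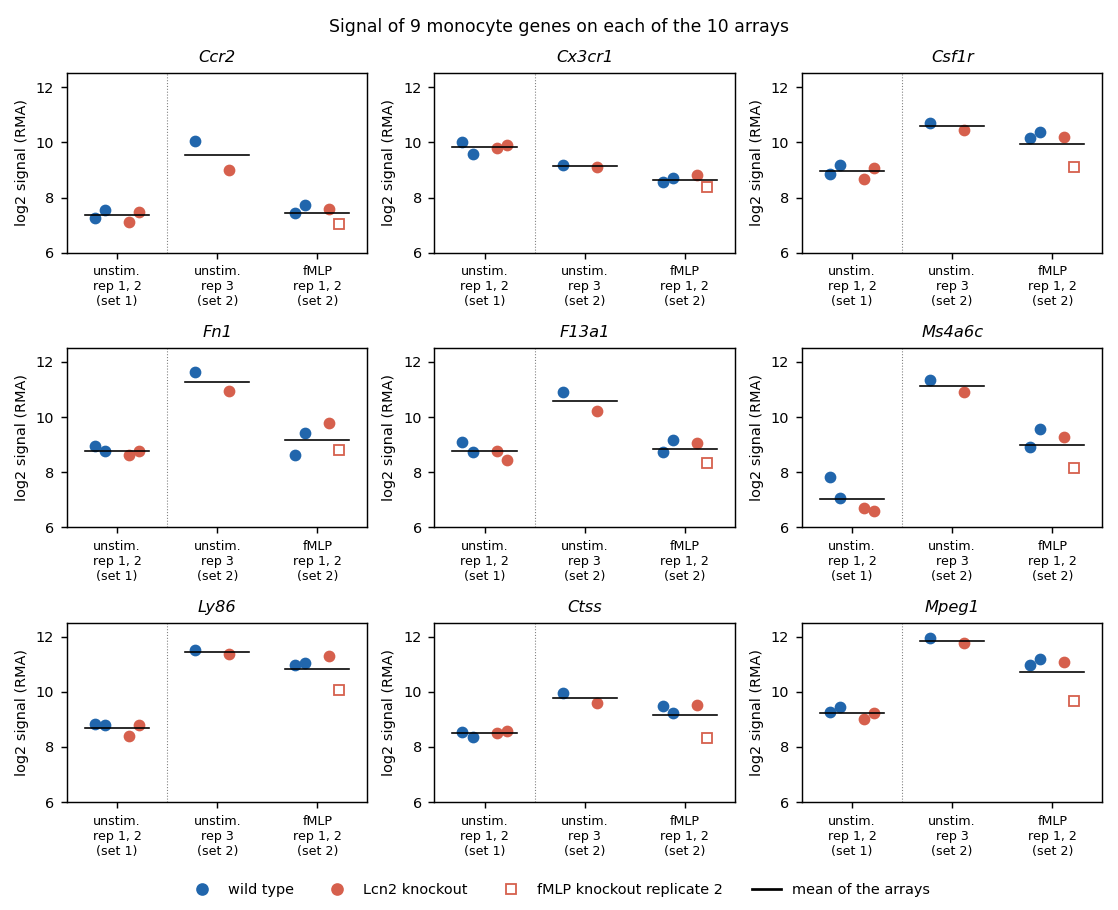
Log2 RMA signal (vertical axis) of each of the 9 monocyte genes on each of the 10 arrays, in columns for unstimulated replicates 1 and 2 (set 1), unstimulated replicate 3 (set 2) and fMLP (set 2). Points are single arrays, bars are means; all 9 genes are lower on the 4 fMLP arrays than on the replicate 3 arrays, and log2 signals of the 2 sets are not on one footing.

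The chemokine receptor genes differed in where they stood on set 1. Ccr2, whose product takes monocytes out of the marrow, had a signal of 10.06 on wild type and 8.995 on knockout replicate 3. The fMLP values were 7.42 and 7.74 in wild type and 7.59 and 7.05 in knockout cells, a mean of 7.45 ± 0.30 (SD, n = 4) and a difference of -2.08. The 4 arrays of set 1 were at 7.27 and 7.54 (wild type) and 7.11 and 7.48 (knockout). By percentile the fMLP arrays (29.9 to 44.3) lay above set 1 (19.8 to 27.4) and below replicate 3 (69.9 and 83.9). Ccr2 exceeded the level required for testing, 8.18, only on the replicate 3 pair. Cx3cr1, the fractalkine receptor gene of patrolling monocytes, was 9.19 and 9.10 on replicate 3. After fMLP it was 8.56 and 8.72 (wild type) and 8.82 and 8.39 (knockout), with a mean of 8.62 ± 0.19 (SD, n = 4), a difference of -0.52. Its set 1 values were 10.01 and 9.57 (wild type) and 9.81 and 9.88 (knockout). Of the 9 genes it was the only one that ranked higher on set 1 (percentile 85.0 to 91.3) than on replicate 3 (71.5 and 72.7).

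Csf1r, the receptor gene for macrophage colony-stimulating factor, had 10.71 and 10.45 on replicate 3. On the fMLP arrays it was 10.14 and 10.38 in wild type and 10.20 and 9.10 in knockout cells (mean 9.95 ± 0.58, SD, n = 4; difference -0.62). On set 1 it was 8.86 and 9.19 (wild type) and 8.69 and 9.06 (knockout). By percentile 3 fMLP arrays (84.1 to 86.6) lay above all of set 1 (61.1 to 77.3) and knockout replicate 2 (72.7) within its range, and the log2 difference from replicate 3 without that array was -0.35.

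The genes of secreted proteins had some of the largest differences. Fn1, which encodes the matrix protein fibronectin, was at 11.63 and 10.94 on replicate 3. With fMLP its signal was 8.63 and 9.41 in wild type and 9.79 and 8.81 in knockout cells (mean 9.16 ± 0.53, SD, n = 4; difference -2.12). The set 1 values were 8.94 and 8.76 (wild type) and 8.62 and 8.75 (knockout), and the percentiles of set 1 (58.8 to 69.9) and the fMLP arrays (63.1 to 80.7) overlapped. F13a1, which encodes the catalytic subunit of factor XIII, was at 10.92 and 10.21 on replicate 3. The stimulated samples had 8.73 and 9.18 in wild type and 9.07 and 8.32 in knockout cells (mean 8.83 ± 0.39, SD, n = 4; difference -1.74). On set 1 it was 9.09 and 8.74 (wild type) and 8.78 and 8.46 (knockout), and its percentiles there (53.8 to 74.6) spanned those after fMLP (56.8 to 72.1).

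Of the surface proteins, Ms4a6c belongs to the membrane-spanning 4-domain family, and LY86 (MD-1) pairs with the Toll-like receptor relative RP105. Ms4a6c was at 11.34 and 10.90 on replicate 3 and had the largest difference, -2.14. Its fMLP values were 8.92 and 9.56 in wild type and 9.28 and 8.17 in knockout cells (mean 8.98 ± 0.61, SD, n = 4). The set 1 values were 7.84 and 7.05 (wild type) and 6.69 and 6.60 (knockout). By percentile it was at 53.4 to 77.4 on the fMLP arrays, 13.1 to 34.3 on set 1, and 91.4 and 94.0 on replicate 3. Ms4a6c exceeded 8.18 on 5 arrays, the replicate 3 pair and 3 of the fMLP arrays. Ly86 was at 11.51 and 11.35 on replicate 3. After fMLP it was 10.95 and 11.03 in wild type and 11.31 and 10.05 in knockout cells (mean 10.83 ± 0.55, SD, n = 4; difference -0.60). On set 1 it was 8.82 and 8.80 (wild type) and 8.39 and 8.81 (knockout). Its percentiles were 50.7 to 66.1 there and 86.2 to 94.8 on the arrays of set 2.

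The genes of lysosomal and endosomal proteins ranked between replicate 3 and set 1 on 3 of the fMLP arrays. Ctss, which encodes the protease cathepsin S, was at 9.97 and 9.59 on replicate 3. After fMLP it was 9.48 and 9.24 in wild type and 9.54 and 8.33 in knockout cells (mean 9.15 ± 0.56, SD, n = 4; difference -0.63). Its set 1 values were 8.56 and 8.38 (wild type) and 8.50 and 8.56 (knockout). By percentile fMLP knockout replicate 2 (57.2) lay within the range of set 1 (51.5 to 57.4), and the other fMLP arrays (72.9 to 77.4) lay above it. Mpeg1 was at 11.93 and 11.76 on replicate 3. Stimulated cells had 10.98 and 11.18 in wild type and 11.06 and 9.65 in knockout cells (mean 10.72 ± 0.72, SD, n = 4; difference -1.13). On set 1 it was 9.28 and 9.46 (wild type) and 9.003 and 9.25 (knockout). By percentile fMLP knockout replicate 2 (81.4) again lay within the range of set 1 (71.6 to 83.1), below the other fMLP arrays (91.8 to 92.9).

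Neighbouring genes differed in the size of this difference. F13a1 and Ly86 lie next to each other on chromosome 13, with 0 protein-coding genes between them, and differed from replicate 3 by -1.74 and -0.60. Ms4a6c and Mpeg1, both on chromosome 19 with 35 protein-coding genes between them, differed by -2.14 and -1.13. Cx3cr1 and Ccr2, on chromosome 9 with 58 between them, differed by -0.52 and -2.08.

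**Figure D2:**
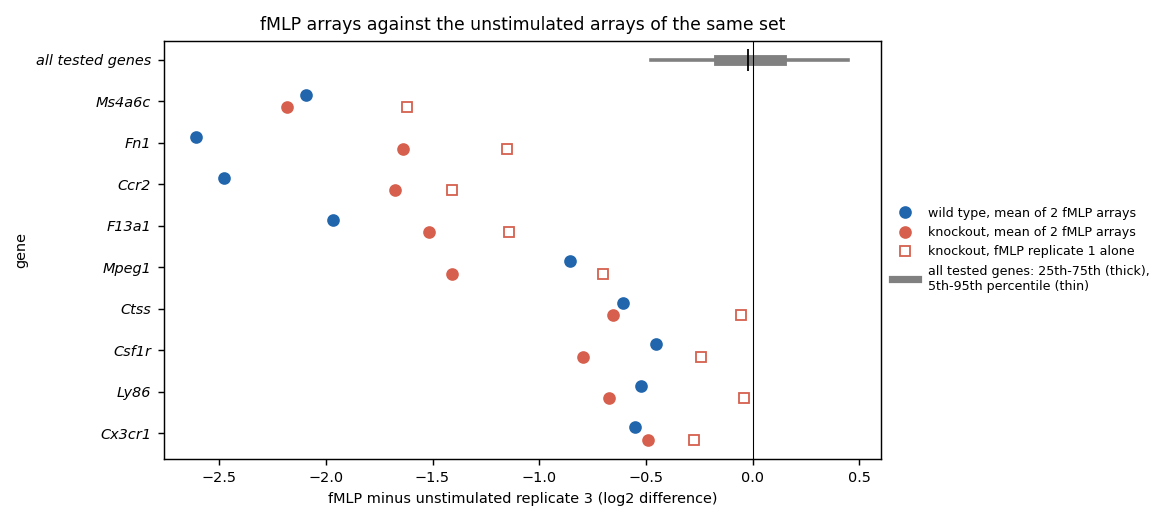
Log2 difference (horizontal axis) between the fMLP arrays and the unstimulated replicate 3 array of the same genotype for each monocyte gene: wild type mean of 2 arrays, knockout mean of 2 arrays, and knockout replicate 1 alone. The grey bar gives all 14070 tested genes for the difference averaged over both genotypes, which rests on more arrays than each point. Ms4a6c, Fn1, Ccr2 and F13a1 lie farthest from 0 in both genotypes, and with knockout replicate 1 alone Ly86 and Ctss come to -0.04 and -0.05.

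Both genotypes gave differences below 0 for all 9 genes. In wild type they ran from -2.61 (Fn1) to -0.45 (Csf1r) and in knockout from -2.18 (Ms4a6c) to -0.49 (Cx3cr1). Within the knockout, replicate 2 was lower than knockout replicate 1 for all 9 genes, by -1.41 (Mpeg1) to -0.43 (Cx3cr1) with a median of -1.11, where all tested genes had a median of -0.13. Lists of other blood cells had medians below 0 too, such as -1.12 for B cell, -0.90 for erythroid and -0.38 for neutrophil genes. Neuronal genes went the other way, with a median of 4.07. With knockout replicate 1 alone, Ccr2 was -1.41 from its replicate 3 array, Ms4a6c -1.62, Fn1 -1.15 and F13a1 -1.14. The same array gave -0.70 for Mpeg1, -0.28 for Cx3cr1 and -0.24 for Csf1r. Leaving out knockout replicate 2 moved the averages over genotype of Csf1r to -0.35, Ly86 to -0.28, Ctss to -0.33 and Mpeg1 to -0.78, and those of Ccr2, Fn1, F13a1 and Ms4a6c to -1.94, -1.88, -1.55 and -1.86.

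On the percentile scale the fMLP arrays can be set against both kinds of unstimulated array. Against replicate 3, the mean percentile after fMLP was lower for all 9 genes, from -39.0 points (Ccr2) to -3.54 (Ly86). Against replicates 1 and 2 the direction turned for 8 of the 9. Ms4a6c then stood 47.9 points higher after fMLP, Ly86 28.8, Ctss 15.7, Ccr2 14.2, Csf1r 12.3, Mpeg1 11.3, Fn1 7.31 and F13a1 1.97 points higher. Cx3cr1 stayed lower, at -26.0 points. Over all tested genes the same difference had a median of 1.62 points and a 5th to 95th percentile of -24.9 to 38.7 points. Without fMLP knockout replicate 2, the 8 were 5.40 (F13a1) to 53.0 (Ms4a6c) points higher and Cx3cr1 was -24.0 points from replicates 1 and 2.

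**Figure D3:**
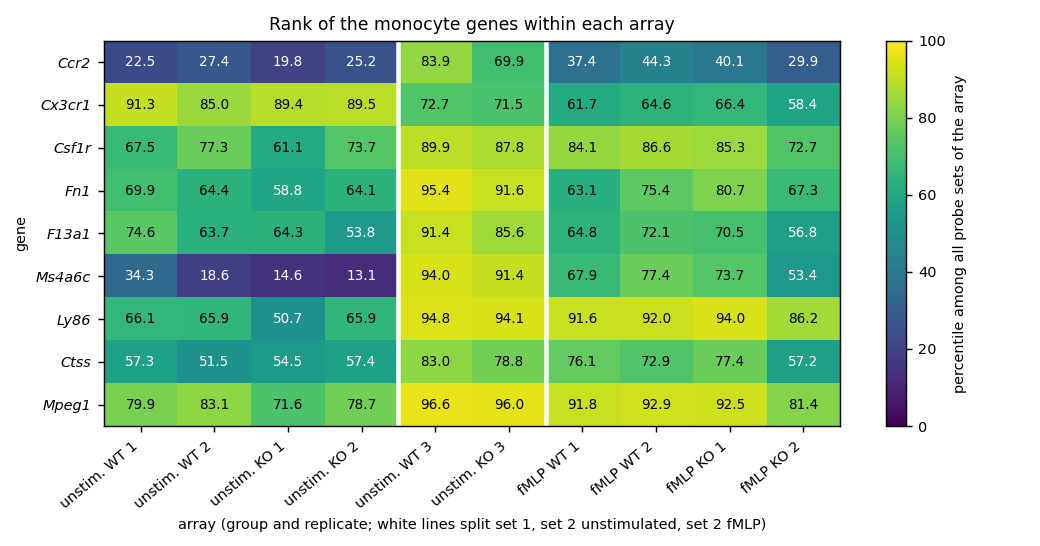
Percentile of each monocyte gene (rows) among all probe sets of each of the 10 arrays (columns), with white lines between set 1, unstimulated replicate 3 and fMLP; colour runs from 0 to 100. For 8 of the genes the replicate 3 columns are the brightest, and Cx3cr1 is brightest on set 1.

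The unstimulated arrays of one label thus differed widely among themselves. Ms4a6c lay at percentile 94.0 and 91.4 on replicate 3 but at 34.3, 18.6, 14.6 and 13.1 on the arrays of set 1. Ccr2 lay at 83.9 and 69.9 on replicate 3, at 22.5, 27.4, 19.8 and 25.2 on set 1, and at 37.4, 44.3, 40.1 and 29.9 after fMLP. Replicate 3 exceeded replicates 1 and 2 by 18.0 (Mpeg1) to 72.5 points (Ms4a6c) for 8 genes, and Cx3cr1 was -16.7 points from them. The median over the 9 genes was 25.7 points, against 0.89 over all tested genes. Other lists stood higher on replicate 3 too, with medians of 17.0 points for primary granule, 13.1 for eosinophil and 11.7 for erythroid genes. Megakaryocyte and neuronal genes stood lower, with medians of -10.8 and -8.84 points. Array set, sex signs and whatever else separated replicate 3 from replicates 1 and 2 cannot be told apart here.

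Whether Lcn2 knockout changed these genes was tested with limma, with array set as a term. In resting cells 8 of 9 were lower in the knockout, as were 6391 of the 14070 tested genes, but none of the 9 passed the test. The differences ran from -0.68 (Ms4a6c, SE 0.32, 95% interval -1.42 to 0.07) to 0.01 (Cx3cr1, SE 0.15, -0.35 to 0.36), with a median of -0.22 against 0.01 for all genes. Between these lay F13a1 and Ccr2 (each -0.43), Fn1 (-0.34), Mpeg1 (-0.22), Ly86 (-0.20), Csf1r (-0.19) and Ctss (-0.08). The limma adjusted p was 1 for each of the 9, and 0 of 9 had an unadjusted p under 0.05; over all genes 1 was called, Lcn2 (0.00711% of those tested), and 75 had an unadjusted p under 0.05. Leaving out fMLP knockout replicate 2 cannot move these differences, since that array enters only through the shared estimate of spread. The intervals and p-values given here do depend on it. Without it the smallest unadjusted limma p among the 9 was lower, and still none was called. Among the resting arrays, Ccr2 and Ms4a6c exceeded the level required for testing only on the replicate 3 pair. Their differences in replicates 1 and 2 therefore rest on signals under that level.

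The pairs of equal replicate number give the same comparison array by array. In 6 of the 9 genes (Ccr2, Fn1, F13a1, Ms4a6c, Csf1r and Mpeg1) the knockout array was lower in each of the 3 pairs, an order found in 12.1% of tested genes. Other lists held it too, with 2 of 5 primary granule, 2 of 5 basophil and mast cell and 3 of 8 macrophage genes. So did 6 of 19 other monocyte and 3 of 12 neutrophil genes, but 0 of 10 B cell, 0 of 6 eosinophil and 0 of 13 dendritic cell genes. In the replicate 3 pair all 9 were lower, by -1.06 for Ccr2, -0.71 for F13a1, -0.69 for Fn1, -0.43 for Ms4a6c and -0.38 for Ctss, where 43.8% of all genes were lower and their 5th to 95th percentile was -0.17 to 0.19. For replicate 1 all 9 were lower too, from -1.15 (Ms4a6c) to -0.06 (Ctss), and for replicate 2 it was 6 of 9, from -0.45 (Ms4a6c) to 0.32 (Cx3cr1). The gap was thus largest for Ccr2, F13a1 and Fn1 on replicate 3, where those genes were bright, and for Ms4a6c in replicate 1. Within set 1 alone, without the replicate 3 arrays, the mean difference was -0.80 for Ms4a6c and -0.29 for F13a1 but -0.11 for Ccr2. In the fit to all arrays, 11 of 12 neutrophil genes (median -0.14) and 5 of 5 primary granule genes (median -0.32) were lower, and 0 of 10 B cell genes (median 0.13), with 0 of each called. Within set 1 alone the medians were -0.20, -0.46 and -0.04, with 7 of 10 B cell genes lower. In the replicate 3 pair they were -0.03, 0.02 and 0.42, with 2 of 5 primary granule and 0 of 10 B cell genes lower. There, 8 of 8 macrophage, 5 of 5 basophil and mast cell and 15 of 19 other monocyte genes were lower. Of eosinophil genes 2 of 6 were lower, and of T and NK cell genes 1 of 6. The part of all these genes in the monocyte values was not tested.

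**Figure D4:**
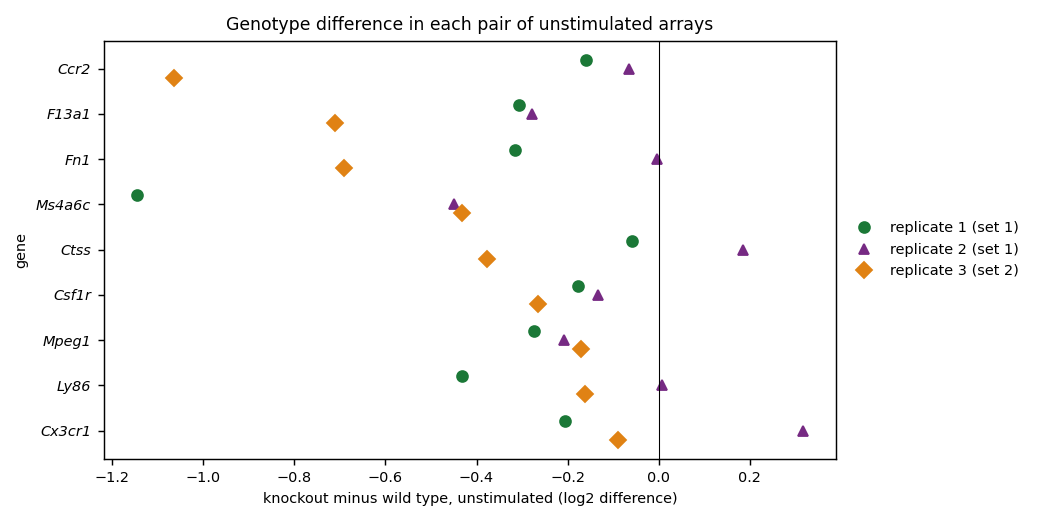
Log2 difference between the knockout and the wild type array of each unstimulated replicate pair (horizontal axis) for the 9 monocyte genes; symbols mark replicates 1 and 2 (set 1) and 3 (set 2). Ccr2, F13a1 and Fn1 lie farthest below 0 in replicate 3, and Ctss, Ly86 and Cx3cr1 lie on both sides of 0.

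After fMLP, the knockout was lower for 8 of 9 genes, from -0.72 (Mpeg1, SE 0.38) to 0.28 (Fn1, SE 0.35), with a median of -0.31 against -0.05 for all genes. None passed (limma adjusted p from 0.416 to 0.934, 0 with an unadjusted p under 0.05), and Lcn2 was the only gene called (0.00711%). These values rested on knockout replicate 2: without it, when the lone knockout array is assumed to vary like the other groups, 2 of 9 were lower, the median was 0.11 and the range -0.05 (Csf1r) to 0.76 (Fn1). Fn1 then had an unadjusted limma p of 0.0182 and an adjusted p of 0.99995, and Lcn2 was again the only gene called (0.00711%). Without knockout replicate 1 in its place, the median was -0.95 and 6 of the 9 were called lower, as were 4397 of all genes (31.3%), with 2004 higher. Neuronal genes stood at 10.81 on knockout replicate 2, as given above, and their part in this was not tested.

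The difference between the genotype effects after and before fMLP was tested as an interaction. Of the 9 genes, 5 had a value below 0, from -0.51 (Mpeg1, SE 0.48) to 0.61 (Fn1, SE 0.45), and the median was -0.04. None passed in limma (adjusted p from 0.776 to 0.959, 0 with an unadjusted p under 0.05), nor did any of all tested genes (0%, with 258 at an unadjusted p under 0.05). Without knockout replicate 2 all 9 were above 0, with a median of 0.44 and Fn1 highest at 1.10 (95% interval 0.37 to 1.82). Fn1 and Ly86 then had an unadjusted p under 0.05, at a limma adjusted p of 0.99987, and 0% of all genes were called. The median, close to 0 with all arrays, was also above 0 without unstimulated wild type replicate 2 (0.10) or fMLP wild type replicate 2 (0.04).

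Genes of the same cell type beyond the 9 were drawn from a list of 26 further monocyte genes, of which 25 were measured and 19 tested. In the comparison of the fMLP arrays with replicate 3, limma called 0.192% of all genes lower and 0.149% higher, and 0 of the 19 either way, with 4 at an unadjusted p under 0.05. Of the 19, 15 were below 0 and the median was -0.33. The 4 with the smallest p were Tifab (-0.70, limma adjusted p = 0.143), Crip1, a LIM domain protein gene (-0.67, 0.271), the C-type lectin gene Clec4a3 (-0.83, 0.282) and Tlr7, the endosomal receptor gene for single-stranded RNA (-0.59, 0.334). Without knockout replicate 2, when 3.79% of all genes were called lower and 6.36% higher, 2 of the 19 fell, Tifab (-0.55, limma adjusted p = 0.0223) and Crip1 (-0.40, 0.0419). The transcription factor gene Pou2f2 rose (0.43, 0.0197), 13 of 19 were below 0, and the median was -0.14. Crip1 had 11.38 and 11.15 on replicate 3, 10.69 to 10.92 on 3 fMLP arrays and 9.86 on knockout replicate 2. All fMLP arrays were thus below replicate 3, an order found in 9 of the 19 and in 20.2% of all tested genes. Without knockout replicate 1 instead, 12 of the 19 were called lower, as were 2373 of all genes (16.9%), with 1682 higher.

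**Figure D5:**
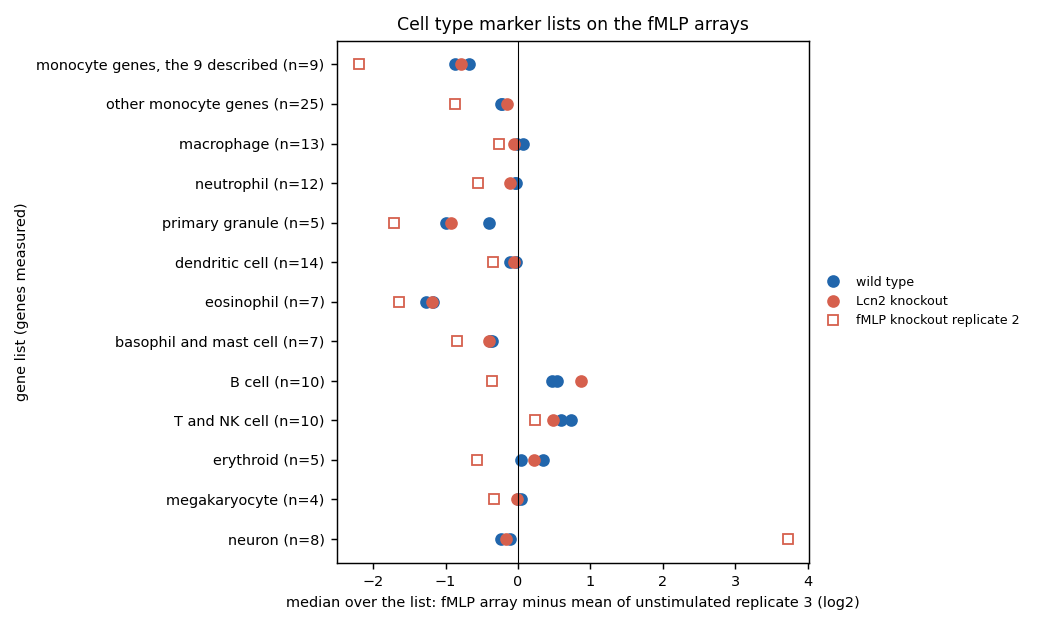
Median log2 difference (horizontal axis) of each cell type list between each fMLP array and the mean of the unstimulated replicate 3 arrays, with the number of measured genes per list; open squares are fMLP knockout replicate 2. The 9 monocyte genes, the eosinophil and the primary granule lists lie below 0 and the B, T and NK cell lists above 0 on the 3 other fMLP arrays.

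Other cell types' markers moved between the same arrays, and their part in the monocyte values was not tested. The calls below take their estimate of spread partly from set 1, and replicate 3 is their only unstimulated reference. With either replicate 3 array left out, 0 of all tested genes were called lower and 0 higher in this comparison. The mean signal of the 9 monocyte genes was 10.37 to 10.81 on replicate 3, 9.31 to 9.63 on the fMLP arrays other than knockout replicate 2 and 8.65 on that array. Eosinophil genes, among them Epx, Prg2 and Prg3, averaged 10.03 to 10.04, 8.30 to 8.58 and 7.83 on the same arrays; 4 of 6 tested were called lower with all arrays and 5 without knockout replicate 2. Basophil and mast cell genes were 9.19 to 9.39 on replicate 3 and 8.74 to 8.84 on those 3 fMLP arrays, with 2 of 5 tested called lower, also without knockout replicate 2. Genes of the primary granules, which are made in neutrophil precursors, were 11.49 to 11.50 and 10.43 to 11.02; 0 of 5 were called with all arrays and 5 of 5 were lower without knockout replicate 2. B cell genes went the other way, at 10.13 to 10.53 and 10.72 to 11.00, with 0 of 10 called and 7 higher without that array. T and NK cell genes were 7.94 to 8.12 and 8.54 to 8.90, with 0 of 6 called and 3 higher without it. Macrophage genes overlapped between these arrays, at 8.17 to 8.28 and 8.19 to 8.28, with 0 of 8 called and, without knockout replicate 2, 1 lower and 1 higher. The neutrophil list was 13.61 to 13.64 and 13.52 to 13.63, with 0 of 12 called under either choice of arrays. Array signals have no true 0: over the 10 arrays the defining eosinophil gene Epx lay at percentile 38.6 to 93.3, the macrophage gene C1qa at 34.4 to 55.0, the T cell gene Cd3e at 63.7 to 83.7 and the B cell gene Cd79a at 86.3 to 98.3.

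The genes most like the 9 in profile over the 6 arrays of set 2 were sought by the root mean square difference from their mean profile, each gene centred on its own mean. The nearest were Snora31 (0.173), Purb (0.182), Cpa3 (0.183), H1f2 (0.185), Adgre1 (0.186), Zfp217 (0.187), Mcpt8 (0.189) and Tmem184c (0.192). Cpa3 and Mcpt8 encode proteases of mast cells and basophils, and Adgre1 encodes the macrophage surface protein F4/80. Their differences between the fMLP arrays and replicate 3 were -1.57, -1.64 and -1.03, and the mean of the 9 genes was -1.29. The members themselves were farther from their own mean, from 0.236 (Mpeg1) and 0.243 (F13a1) to 0.489 (Fn1), which placed them at rank 32 to 1194 among tested genes. This likeness rests on 6 arrays that share the replicate 3 pair and knockout replicate 2.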

How the data were processed

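The deposited values are RMA signals, summarised per probe set by the authors with Affymetrix Expression Console per the submitters' processing notes, and are taken to be log2, judged by their range, because the log base is not given in the sources used here. Of 35556 probe sets, 21789 name 1 gene, 1621 several and 12146 none in the array annotation; gene names come from that annotation. For each gene the probe set with the highest mean was kept, and 14070 genes with at least 2 arrays above the median of all values (8.18) were tested; all 9 monocyte genes passed, Ccr2 only through replicate 3. limma 3.58.1 in R 4.3.3 was fitted to all 10 arrays with 4 group means and array set (interquartile range below or above 2) as a term, leaving 5 residual degrees of freedom. Tests were two-sided with Benjamini-Hochberg adjustment over all tested genes, called below 0.05; the fit was tested on simulated data. With the array set term, the fMLP difference averaged over genotype equals the fMLP arrays minus the replicate 3 arrays. The number of arrays limits the precision. Same-numbered unstimulated arrays deviated together from their group means (correlations 0.949, 0.929 and 0.988, largely the array set; 0.464 within set 1), and the fMLP pairs at 0.0598. The members and lists were chosen with earlier results of these data known. Named genes are the 9, Lcn2, the called genes of the further monocyte list (or the 4 with the smallest p), the 8 nearest in profile and up to 3 of each marker list. Alternatives covered normalization, filters, probe set choice, array set, moderation, array weights, the replicate block and each array left out.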

Additional observations from a re-analysis of the deposited data

How the results depend on the processing

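For the 9 genes, 150 of 162 alternative values of the difference between the fMLP arrays and replicate 3 kept their sign and stayed close, 7 moved and 5 reversed. The 9 were selected on this comparison and many of the 150 were fixed in advance, so the count is a description and lends the difference no support. Leaving out an array of set 1, using array set 2 only, or changing the filter, moderation or probe set choice cannot move this difference. The reversals came without the array set term, which brings in log2 signals of set 1 although the 2 sets are not on one footing. They were Ms4a6c 0.58, Csf1r 0.46, Ly86 1.22, Ctss 0.22 and Mpeg1 0.60, with Crip1 of the further list at 0.45. By percentile against replicates 1 and 2 the values reversed to 14.2 (Ccr2), 7.31 (Fn1), 1.97 (F13a1), 47.9 (Ms4a6c), 12.3 (Csf1r), 28.8 (Ly86), 15.7 (Ctss) and 11.3 (Mpeg1). With fMLP knockout replicate 2 also left out, an alternative chosen after seeing the data, they were 16.8, 10.7, 5.40, 53.0, 15.5, 30.7, 20.8 and 14.1 in that order. Of 180 alternative values of the resting genotype difference, 173 kept their sign and 7 reversed: Cx3cr1 was -0.0895 with array set 2 only, -0.00905 with median centring and -0.13 to 0.12 with single arrays left out, and Ctss was 0.0634 with array set 1 only and -0.18 to 0.0634 with single arrays left out. Many of the 173 were fixed too. Leaving out an fMLP array, dropping the array set term, the replicate block, and changes of filter, moderation or probe set choice cannot move this difference. The members' median after fMLP ranged from -0.95 to 0.11 and that of the interaction from -0.40 to 0.44 with single arrays left out, and quantile normalization gave 0.13 for the interaction; the cause was not tested. Called genes numbered 0 with array set 2 only in both genotype comparisons, which leaves fewer samples. With single arrays left out they numbered 0 to 1 at rest, 0 to 6401 after fMLP and 0 to 4924 for the interaction, the highest counts each without fMLP knockout replicate 1; further monocyte genes called lower numbered 0 to 12. With the replicate block, 1 gene was called at rest, 0 after fMLP and 0 for the interaction, and Lcn2 after fMLP stayed at -5.14; the block cannot separate the fMLP average from array set and gave no value there.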
